A study of Rattus norvegicus with 26 samples.

Results

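The genes described here are the metalloproteinases of the Mmp, Adam, Adamts and Adamtsl families measured in primary rat brain cell cultures. They were chosen by symbol alone, as every gene whose array annotation begins with 1 of these family names followed by a number. This gave 51 of the 14217 genes on the array, carried by 71 probe sets. Where a gene had several probe sets, as 14 of the 51 did, the one brightest on average across the 26 arrays was used. Affymetrix expression arrays were hybridised with RNA from neuronal, astrocytic, oligodendrocytic and microglial cultures of the cerebral cortex of rat pups at postnatal day 1, with 4 biological replicates of each culture. A further 10 arrays carried RNA mixed from those cultures, with 2 replicates of each of 5 mixtures. The fraction of neuronal RNA was 0.25 in NA1, 0.5 in NA2 and 0.75 in NA3, and astrocytic RNA made up the remainder. In NAO, astrocytic and oligodendrocytic RNA at 0.25 each joined neuronal RNA at 0.5. In NAOM the fractions were 0.5 neuronal, 0.2 astrocytic, 0.2 oligodendrocytic and 0.1 microglial. No strain, genotype or treatment is named in the labels. Whether replicate cultures came from separate litters is not stated, so p-values set differences only against the spread between these replicate cultures.

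Mmps and Adamts enzymes are zinc proteases that are secreted or held at the cell surface, where they cut collagens, laminins and the proteoglycans of the brain matrix. They are made as inactive pro-enzymes, and tissue inhibitors of metalloproteinases (Timps) hold them in check. Adams span the membrane: some, such as Adam10 and Adam17, shed the outer parts of other membrane proteins, while Adam11, Adam22 and Adam23 lack a working catalytic site and serve as receptors at synapses and axons. Adamtsl proteins share the ancillary domains of the Adamts enzymes but have no protease domain.

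All values are log2 expression values, on which a difference of 1 is a doubling, and they ran from 2.57 to 14.36 over the whole table. Calls required a log2 difference of at least 1 and a limma p under 0.05 after Benjamini-Hochberg adjustment across all 31042 probe sets. Folds are ratios of RMA signal; where a culture read below the array median (5.25 to 5.31 in cultures), signal is near background and the fold is not an exact ratio of RNA. Differences are given with their standard error, and every group had n = 4 arrays. For each probe set limma used 1 spread shared by the 4 cultures. Where cultures differ in spread, the standard error is thus not that of the compared cultures alone. The labelled cell types were checked against marker lists. The mean level of 12 neuronal markers was 10.63 to 10.83 on neuronal arrays and at most 6.30 on the others. The mean of 13 microglial markers was 10.21 to 10.78 on microglial arrays, 7.77 to 8.81 on oligodendrocytic arrays and at most 5.89 elsewhere. The mean of 11 oligodendrocytic markers was 9.32 to 11.24 on oligodendrocytic arrays, 7.23 to 8.67 on microglial arrays and at most 6.74 elsewhere. The mean of 11 astrocytic markers was 9.36 to 10.37 on astrocytic arrays, 7.15 to 9.11 on neuronal arrays, 6.85 to 8.60 on oligodendrocytic arrays (highest in replicate 1) and 6.20 to 6.52 on microglial arrays. Astrocytic replicate 4 stood apart from the other astrocytic arrays. Its astrocytic list was the lowest of the 4, and its mean over 12 fibroblast and meningeal markers was 8.39 against 6.69, 6.79 and 6.85. Microglial replicate 4 carries the label of a microglial culture but a description that reads as a mixture, and it was kept with the microglia. Because these are bulk samples, fewer cells of a type and less RNA per cell cannot be told apart.

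Most members that stood above all other cultures did so in astrocytes. Of the 51 members, 22 (43.1%) differed between at least 1 pair of cultures, against 48.4% of all genes. Astrocytic cultures held 10 members (19.6%) above each of the other 3 cultures, where 5.91% of all genes did so. These were Mmp11, Mmp14, Mmp19, Mmp24, Adamts5, Adamts7, Adamts9, Adamtsl1, Adamtsl4 and Adamtsl5. Neuronal cultures held 4 (7.84%), against 8.22% of all genes: Adam22, Adam23, Adamts15 and Mmp17. Oligodendrocytic cultures held 1 (1.96%), Adamts4, against 1.7% of all genes. Microglial cultures held 0 of 51 by limma, against 3.65% of all genes, and the count was also 0 at an unadjusted p under 0.05 with the same minimum difference. The unadjusted p could not admit Adam17, which missed only the minimum, against oligodendrocytes (0.94, limma adjusted p = 0.00385). The shares for neurons and oligodendrocytes were thus near those of all genes, while the astrocytic share was higher than that background. Without astrocytic replicate 4 the same 10 members were above each other culture in astrocytes. With the mean of a gene's probe sets in place of the brightest, 7 of the 10 were, without Adamts9, Adamtsl5 and Mmp24.

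Markers of other cell types were also higher on all 4 astrocytic arrays. The mean of the fibroblast and meningeal list was 6.69 to 8.39 there and at most 5.83 on any other culture array. In astrocytes 7 of its 12 genes (58.3%) were called higher than in the rest, against 11.6% of all genes. The mean of 9 pericyte and smooth muscle markers was 6.42 to 7.37 against at most 5.30, with 4 of 9 called higher. The mean of 4 ependymal markers was 5.04 to 8.40 against at most 4.78, with 4 of 4 called higher. Of 8 endothelial markers 0 were called in astrocytes, which says little for a list this short. Their mean was 4.07 to 4.23 there and up to 4.61 in microglia. The part of these cell types in the astrocytic counts was not tested.

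**Figure D1:**
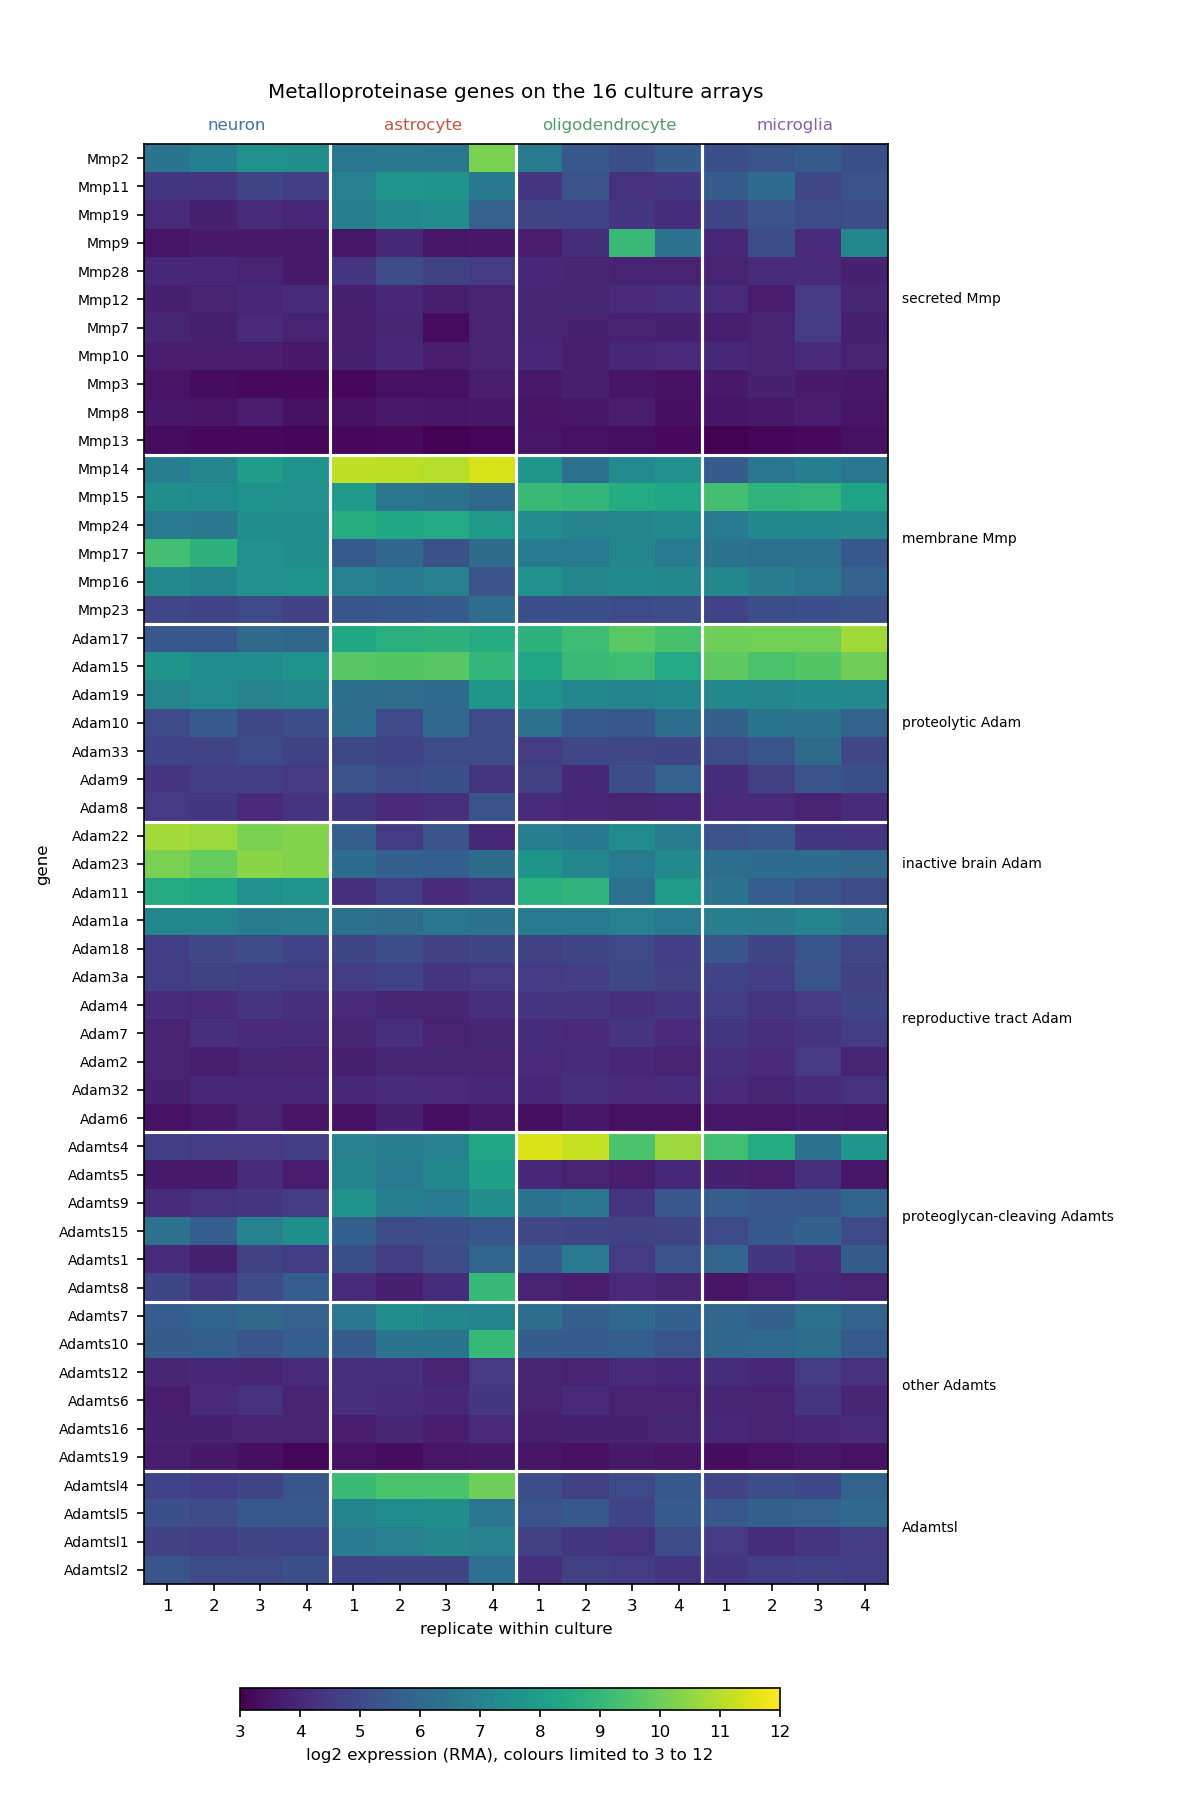
Log2 expression of the 51 members (rows, grouped by class) on the 16 culture arrays (columns, 4 replicates per culture), with colours limited to 3 to 12. Rows are read across, since levels of different probe sets are not comparable. Mmp14 and Adamtsl4 are brightest in astrocytes, Adam22 and Adam23 in neurons and Adamts4 in oligodendrocytes, and Adamts8, Adamts10 and Mmp2 are bright on astrocytic array 4.

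Measured against the mean of the other 3 cultures, 12 members (23.5%; 11.6% of all genes) were higher and 5 (9.8%; 8.82%) lower in astrocytes. In neurons 5 members (9.8%; 13.1%) were higher and 8 (15.7%; 15.5%) lower. In oligodendrocytes 4 (7.84%; 6.77%) were higher and 4 (7.84%; 6.06%) lower, and in microglia 3 (5.88%; 8.74%) were higher and 8 (15.7%; 11.2%) lower. Without astrocytic replicate 4, Adamts10 and Mmp2 were no longer among the astrocytic 12, and 10 remained. Without microglial replicate 4, 3 members were higher and 6 lower in microglia, Adam11 and Mmp2 having dropped out. The median difference of the 51 members lay between -0.14 and 0.01 in these 4 contrasts, and that of all genes between -0.10 and 0.04. Another 16 members (31.4%) gave a signal below the array median on all 16 culture arrays, against 20.5% of all genes. Probe sets differ in affinity, so this compares signal and not the amount of RNA of different genes.

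The largest run of such dim members lies together in the genome. In the order of the rat assembly GRCr8, Mmp13, Mmp12, Mmp3, Mmp10, Mmp8 and Mmp7 follow each other on chromosome 8 with between 0 and 2 other protein-coding genes from 1 to the next. All 6 were below the array median on all 16 culture arrays, with values between 2.91 and 4.62. Promoters were compared because these 6 share both position and low signal, while other members were high in a single culture. RefSeq promoters of GRCr8, 250 bases before to 50 after the gene start, were matched for 30 of the 51 members. The AP-1 motif TGANTCA, bound by Fos and Jun proteins, was searched on both strands. It was present in 6 of the 30 member promoters and in 7.33% of 33469 promoters of the same length. Of the 6 cluster genes, 5 held it (Mmp3, Mmp7, Mmp10, Mmp12 and Mmp13), at positions between -87 and -61 from the start, and Adam19 held it at -169. The TATA motif TATAAA, read on both strands, was in 10 of 30 and in 14.2% of all promoters, and all 6 cluster genes held it. The GC box GGGCGG was in 17 of 30 and 33.1% of all promoters, and in none of the 6. The Ets core GAGGAA was in 7 of 30 and 27.6%. Of these, 3 cluster promoters are printed 5′ to 3′, in lower case, with any match to these 4 motifs in capitals; the Mmp10 promoter also holds GAGGAA on its other strand, beside a pair of overlapping TATA matches. They lie at chr8:12925031-12925330 (plus strand), chr8:12974457-12974756 (plus strand) and chr8:12782579-12782878 (plus strand).
Mmp3: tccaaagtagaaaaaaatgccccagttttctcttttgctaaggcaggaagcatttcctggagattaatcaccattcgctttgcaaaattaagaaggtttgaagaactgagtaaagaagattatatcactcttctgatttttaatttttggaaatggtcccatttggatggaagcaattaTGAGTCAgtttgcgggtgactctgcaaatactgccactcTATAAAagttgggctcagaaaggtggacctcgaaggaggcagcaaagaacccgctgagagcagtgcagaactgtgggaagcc
Mmp10: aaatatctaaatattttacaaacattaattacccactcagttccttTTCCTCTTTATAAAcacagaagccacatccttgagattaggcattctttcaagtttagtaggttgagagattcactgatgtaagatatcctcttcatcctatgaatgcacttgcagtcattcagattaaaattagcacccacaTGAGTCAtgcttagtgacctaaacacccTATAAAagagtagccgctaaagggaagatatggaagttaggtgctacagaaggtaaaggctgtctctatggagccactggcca
Mmp13: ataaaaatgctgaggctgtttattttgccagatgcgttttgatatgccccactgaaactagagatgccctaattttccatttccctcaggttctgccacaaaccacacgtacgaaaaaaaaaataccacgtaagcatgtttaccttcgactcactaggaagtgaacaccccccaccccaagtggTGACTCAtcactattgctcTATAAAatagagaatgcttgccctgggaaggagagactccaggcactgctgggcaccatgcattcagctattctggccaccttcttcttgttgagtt

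The promoters of 4 members that were high in 1 culture are printed in the same way for comparison: Adamtsl4 and Mmp11 (astrocytes), Adamts4 (oligodendrocytes) and Adam22 (neurons). They lie at chr2:185935747-185936046 (minus strand), chr20:12730034-12730333 (plus strand), chr13:86202761-86203060 (plus strand) and chr4:26670862-26671161 (plus strand). Their G and C content was 72.3%, 68.0%, 52.3% and 69.3%, against 42.0%, 38.3% and 45.3% for Mmp3, Mmp10 and Mmp13. None of the 4 holds TGANTCA or TATAAA in this window. These 4 were chosen after their values were seen and do not stand for all members. Adamts7, also above each other culture in astrocytes, holds TATAAA and no GC box at 46.7% G and C, while Mmp28, below the array median on all 16 culture arrays, holds 4 GC boxes and no TATAAA at 65.0%. Adamtsl4 holds 2 GC boxes, Mmp11 holds 4, and Adam22 holds 1 on its other strand. Adamts4 holds GAGGAA. A match describes these letters and does not show a bound site.
Adamtsl4: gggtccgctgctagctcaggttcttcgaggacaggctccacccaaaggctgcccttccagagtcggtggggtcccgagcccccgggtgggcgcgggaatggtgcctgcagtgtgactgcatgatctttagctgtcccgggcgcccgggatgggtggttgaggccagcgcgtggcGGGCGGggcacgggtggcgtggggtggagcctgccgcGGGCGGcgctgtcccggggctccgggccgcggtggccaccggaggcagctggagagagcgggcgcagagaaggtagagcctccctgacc
Mmp11: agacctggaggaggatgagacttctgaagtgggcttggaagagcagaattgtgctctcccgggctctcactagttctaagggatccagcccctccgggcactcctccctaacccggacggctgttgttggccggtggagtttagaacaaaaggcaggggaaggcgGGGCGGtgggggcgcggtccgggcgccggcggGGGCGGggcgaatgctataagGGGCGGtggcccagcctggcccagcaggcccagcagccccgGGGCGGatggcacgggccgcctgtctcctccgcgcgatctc
Adamts4: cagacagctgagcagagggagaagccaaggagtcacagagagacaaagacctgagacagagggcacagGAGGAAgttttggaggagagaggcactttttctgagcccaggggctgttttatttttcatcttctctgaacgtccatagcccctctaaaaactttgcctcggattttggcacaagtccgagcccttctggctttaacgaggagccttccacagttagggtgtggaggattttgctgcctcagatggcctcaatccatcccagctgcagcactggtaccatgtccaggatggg
Adam22: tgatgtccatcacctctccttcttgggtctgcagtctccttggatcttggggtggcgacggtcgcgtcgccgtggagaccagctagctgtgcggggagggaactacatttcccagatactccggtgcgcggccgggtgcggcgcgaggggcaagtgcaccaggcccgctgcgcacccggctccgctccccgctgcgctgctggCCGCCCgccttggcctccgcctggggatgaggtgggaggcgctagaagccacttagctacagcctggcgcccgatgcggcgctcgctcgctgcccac

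Of the 11 secreted Mmps, 3 differed between cultures: Mmp11, Mmp19 and Mmp2. Beside this and the class counts below, 48.4% of all genes differed between at least 1 pair, and the classes are small. Mmp11 (stromelysin-3), which is activated by furin inside the cell, was highest in astrocytes. Its values were 6.92, 7.69, 7.66 and 6.65 on the 4 astrocytic arrays, 5.62, 6.13, 4.93 and 5.30 on microglial arrays, 4.46, 4.42, 4.86 and 4.68 on neuronal arrays and 4.42, 5.29, 4.27 and 4.42 on oligodendrocytic arrays. No array of another culture reached the lowest astrocytic one. The difference from microglia, the next highest, was 1.73 ± 0.29 (3.33-fold; limma adjusted p = 0.000199), and that from neurons was 2.62 ± 0.29 (6.16-fold; adjusted p = 1.75e-06).

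Mmp19 was also highest in astrocytes, with microglia next. It read 6.87, 7.29, 7.41 and 5.83 in astrocytes, 4.89, 5.30, 5.01 and 5.17 in microglia, 4.84, 4.80, 4.42 and 4.19 in oligodendrocytes and 4.12, 3.83, 4.10 and 4.05 in neurons. Astrocytic array 4 was the lowest of the astrocytes and still above every other array. Astrocytes exceeded microglia by 1.76 ± 0.26 (3.38-fold; adjusted p = 7.78e-05) and neurons by 2.83 ± 0.26 (7.09-fold; adjusted p = 2.95e-07). Microglia also exceeded neurons, by 1.07 ± 0.26 (adjusted p = 0.00316).

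Mmp9 (gelatinase B), a secreted enzyme of activated glia and leukocytes, was high on a few arrays only. It read 3.71, 4.19, 9.09 and 6.35 in oligodendrocytic cultures and 4.03, 5.15, 4.07 and 7.14 in microglial cultures. Neuronal arrays read 3.49, 3.63, 3.65 and 3.65, and astrocytic arrays 3.57, 4.00, 3.55 and 3.57. High values thus stood in oligodendrocytic replicates 3 and 4 and microglial replicate 4, and the remaining replicates of those cultures ran down to near the neuronal level. Its second probe set had the same 3 high arrays, with 8.26 and 5.75 in the oligodendrocytic replicates and 5.90 in the microglial one. No difference between cultures was called for Mmp9; with oligodendrocytic replicate 1 or 2 or microglial replicate 4 left out, it was called higher in oligodendrocytes than in the rest. The other secreted Mmps, namely the 6 of the chromosome 8 cluster and Mmp28 (epilysin), were below the array median on every culture array. In the cluster of 6, 0 members were called between any pair of cultures by limma, and 3 had an unadjusted p under 0.05 for at least 1 pair, none with a log2 difference of 1. The share of all genes at that unadjusted threshold is not given here.

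Of the 6 membrane-bound Mmps, 4 differed between cultures. Mmp14 (MT1-MMP), which activates pro-Mmp2 at the cell surface, was high in astrocytes. It read 11.14, 11.10, 10.99 and 11.45 in astrocytes, 6.84, 7.09, 7.93 and 7.58 in neurons, 7.78, 6.33, 7.36 and 7.54 in oligodendrocytes and 5.61, 6.52, 6.89 and 6.52 in microglia. Every astrocytic array lay more than 3 log2 units above the highest array of any other culture. Astrocytes exceeded neurons by 3.81 ± 0.32 (14.0-fold; adjusted p = 8.6e-08) and microglia by 4.79 ± 0.32 (27.6-fold; adjusted p = 1.62e-08). The second probe set of Mmp14 also placed astrocytes above neurons, by 1.95 ± 0.19 (3.87-fold; adjusted p = 4.66e-07).

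Mmp17 (MT4-MMP), which is held to the membrane by a lipid anchor, was highest in neurons, with 9.29, 8.81, 7.56 and 7.45. The oligodendrocytic arrays read 6.70, 6.74, 7.12 and 6.68, the microglial arrays 6.46, 6.27, 6.33 and 5.49 and the astrocytic arrays 5.54, 5.99, 5.21 and 6.17. Neuronal replicates 1 and 2 were above replicates 3 and 4, and all 4 were above the other cultures. The difference was 1.47 ± 0.36 from oligodendrocytes (2.77-fold; adjusted p = 0.00355) and 2.55 ± 0.36 from astrocytes (5.85-fold; adjusted p = 2.51e-05).

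Mmp15 (MT2-MMP) was high in both oligodendrocytes (9.07, 8.95, 8.54 and 8.27) and microglia (9.29, 8.86, 8.90 and 8.18). Neuronal arrays read 7.49, 7.37, 7.59 and 7.53, and astrocytic arrays 7.87, 6.53, 6.35 and 6.11. Microglia exceeded astrocytes by 2.09 ± 0.32 (4.27-fold; adjusted p = 8.86e-05), and oligodendrocytes exceeded them by 1.99 ± 0.32 (3.98-fold; adjusted p = 0.000156). The 2 high cultures differed by 0.10 ± 0.32 (adjusted p = 0.848). These cultures also shared marker RNA, as the lists for microglia and oligodendrocytes were above the neuronal level in both, and the part of this in the result was not tested.

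For Mmp24 (MT5-MMP), an enzyme known from the nervous system, the 3 probe sets gave opposite answers. The probe set with the highest mean read 8.62, 8.39, 8.51 and 7.83 in astrocytes and 6.71, 6.60, 7.47 and 7.46 in neurons, with 7.02 to 7.36 in oligodendrocytes and 6.75 to 7.24 in microglia. By it, astrocytes exceeded oligodendrocytes by 1.16 ± 0.22 (2.23-fold; adjusted p = 0.000548) and neurons by 1.28 ± 0.22 (2.43-fold; adjusted p = 0.000131). A second probe set had the same direction, with astrocytes above neurons by 1.59 ± 0.19 (adjusted p = 3.25e-06). The third read 8.80, 8.67, 8.20 and 8.49 in neurons and at most 5.47 on any other array. By it, neurons exceeded astrocytes by 3.44 ± 0.24 (10.8-fold; adjusted p = 9.48e-09). The direction for this gene therefore depended on the probe set. With the mean of the 3, the astrocytic excess over oligodendrocytes was 0.77 and no longer called. By that mean neurons were slightly above astrocytes, so astrocytes were no longer the highest culture. The remaining membrane members were not called in any pair. Mmp16 (MT3-MMP) read 6.98, 6.69, 6.90 and 5.36 in astrocytes and 7.08 to 7.64 in neurons, and Mmp23 read 5.42 to 6.21 in astrocytes and 4.77 to 5.25 elsewhere.

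**Figure D2:**
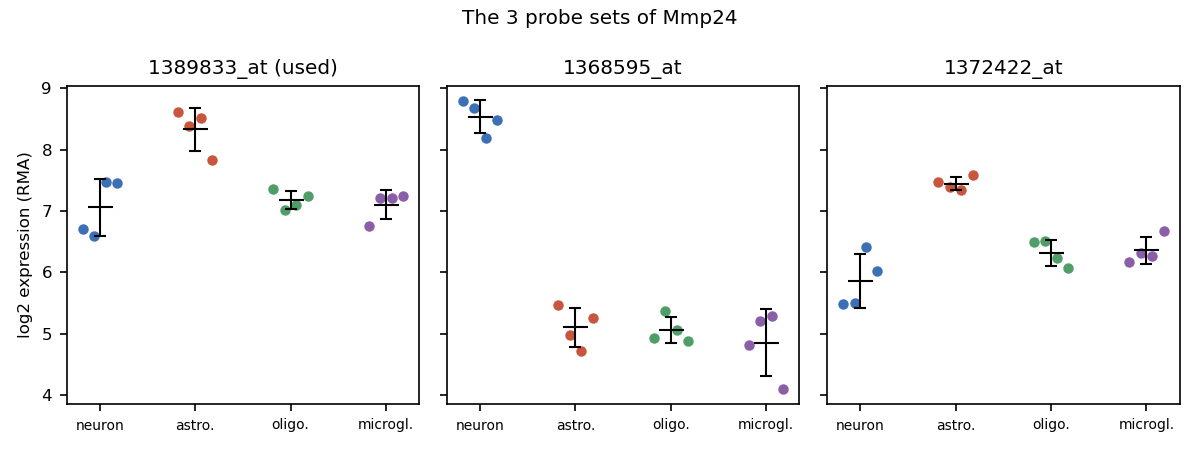
Log2 expression of the 3 Mmp24 probe sets on the 16 culture arrays; points are arrays, and bars are the mean and SD of 4 replicates. Astrocytic arrays are highest in the left panel (the probe set used) and the right panel, and neuronal arrays are highest in the middle panel.

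Among the 7 Adams with protease activity, Adam17 and Adam15 differed between cultures, and both were lowest in neurons. Adam17, the sheddase that releases tumour necrosis factor and ligands of the epidermal growth factor receptor, read 5.44, 5.46, 6.11 and 6.04 in neurons. Astrocytic arrays read 8.38, 8.65, 8.80 and 8.57, oligodendrocytic arrays 8.81, 9.21, 9.70 and 9.37, and microglial arrays 10.00, 10.07, 10.07 and 10.70. The 4 cultures did not overlap, and they ascended in that order. The mean of the microglial markers was 7.77 to 8.81 on oligodendrocytic arrays and 4.44 to 4.65 on neuronal arrays. The part of microglial RNA in the oligodendrocytic level of Adam17 was not tested. Microglia exceeded neurons by 4.45 ± 0.21 (21.9-fold; adjusted p = 1.32e-10) and astrocytes by 1.61 ± 0.21 (3.05-fold; adjusted p = 1.97e-05). Microglia exceeded oligodendrocytes by 0.94 ± 0.21 (1.91-fold; adjusted p = 0.00385), which was under the minimum of 1. Without oligodendrocytic replicate 3 or without microglial replicate 1, Adam17 passed this minimum and microglia held 1 member above each other culture.

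Adam15 (metargidin), which carries an integrin-binding motif, read 7.67, 7.39, 7.36 and 7.62 in neurons. It read 9.65, 9.61, 9.68 and 8.97 in astrocytes, 8.33, 9.10, 9.22 and 8.50 in oligodendrocytes and 9.78, 9.41, 9.63 and 10.03 in microglia. Every neuronal array was below every glial array. Neurons were lower than microglia (log2 difference -2.20 ± 0.21, adjusted p = 2.81e-07), astrocytes (-1.97 ± 0.21, adjusted p = 1.19e-06) and oligodendrocytes (-1.28 ± 0.21, adjusted p = 0.000118). Adam10, the main alpha-secretase of neurons, was not called between any pair: its values ran from 4.94 to 5.52 in neurons and from 5.80 to 6.49 in microglia, a difference of 0.98 ± 0.30 (adjusted p = 0.0128) that fell short of the minimum. Adam19 read 6.27, 6.23, 6.15 and 7.75 in astrocytes and 7.02 to 7.36 in neurons. Adam8, Adam9 and Adam33 lay between 3.88 and 6.13 on all 16 arrays and were not called.

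All 3 catalytically inactive Adams of the brain differed between cultures. Adam22, a receptor for the secreted protein Lgi1 at synapses, read 10.76, 10.64, 10.18 and 10.30 in neurons. It read 6.83, 6.63, 7.35 and 6.83 in oligodendrocytes, 5.74, 4.61, 5.37 and 3.99 in astrocytes and 5.31, 5.44, 4.45 and 4.35 in microglia. Neuronal arrays were far above all others, and oligodendrocytic arrays were above both other glial cultures without overlap. Neurons exceeded oligodendrocytes by 3.56 ± 0.34 (11.8-fold; adjusted p = 4.08e-07), and oligodendrocytes exceeded microglia by 2.02 ± 0.34 (4.07-fold; adjusted p = 0.00041). The other 2 probe sets of Adam22 read at most 5.56 on any culture array, and neither was called between neurons and astrocytes.

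Adam23, which binds the same ligand family, read 10.20, 9.86, 10.38 and 10.28 in neurons and 7.64, 7.18, 6.70 and 7.22 in oligodendrocytes. Astrocytic arrays read 6.17, 5.76, 5.68 and 6.18, and microglial arrays 6.24, 6.17, 6.18 and 6.01. As for Adam22, neurons were highest and oligodendrocytes next. Neurons exceeded oligodendrocytes by 2.99 ± 0.18 (7.97-fold; adjusted p = 2.59e-09), and oligodendrocytes exceeded astrocytes by 1.24 ± 0.18 (2.36-fold; adjusted p = 5.71e-05). Of its other probe sets, 1 also placed neurons above astrocytes (2.49 ± 0.14, adjusted p = 9.47e-10) and 1 did not (-0.15 ± 0.13, adjusted p = 0.415).

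Adam11 departed from this pair by being as high in oligodendrocytes as in neurons. It read 8.54, 8.37, 7.52 and 7.68 in neurons and 8.71, 8.84, 6.29 and 7.94 in oligodendrocytes, whose replicate 3 was the lowest. Microglial arrays read 6.44, 5.70, 5.36 and 5.11, and astrocytic arrays 4.25, 4.67, 4.11 and 4.37. Neurons and oligodendrocytes overlapped, with a difference of 0.08 ± 0.46 (adjusted p = 0.926), and astrocytes were below every other culture. Neurons exceeded astrocytes by 3.67 ± 0.46 (12.8-fold; adjusted p = 6.07e-06), and oligodendrocytes exceeded them by 3.59 ± 0.46 (12.1-fold; adjusted p = 1.65e-05).

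The ligands and synaptic partners of these receptors were counted in a list of 9 genes, of which 8 were measured. In neurons 5 (62.5%; 13.1% of all genes) were higher and 0 lower than in the rest. In astrocytes 1 (12.5%; 11.6%) was higher and 4 (50%; 8.82%) lower, in oligodendrocytes 1 (12.5%; 6.77%) and 2 (25%; 6.06%) and in microglia 0 (8.74%) and 3 (37.5%; 11.2%). The median difference in neurons was 1.47, against -0.10 for all genes. Lgi1 was 7.33 in neurons on average and at most 3.42 in the mean of any other culture (neurons minus the rest 4.10 ± 0.08, adjusted p = 1.52e-14). Lgi3 was highest in oligodendrocytes (7.92; difference 2.08 ± 0.30, adjusted p = 7.7e-05) and Lgi4 in astrocytes (6.52; difference 2.09 ± 0.38, adjusted p = 0.000381).

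**Figure D3:**
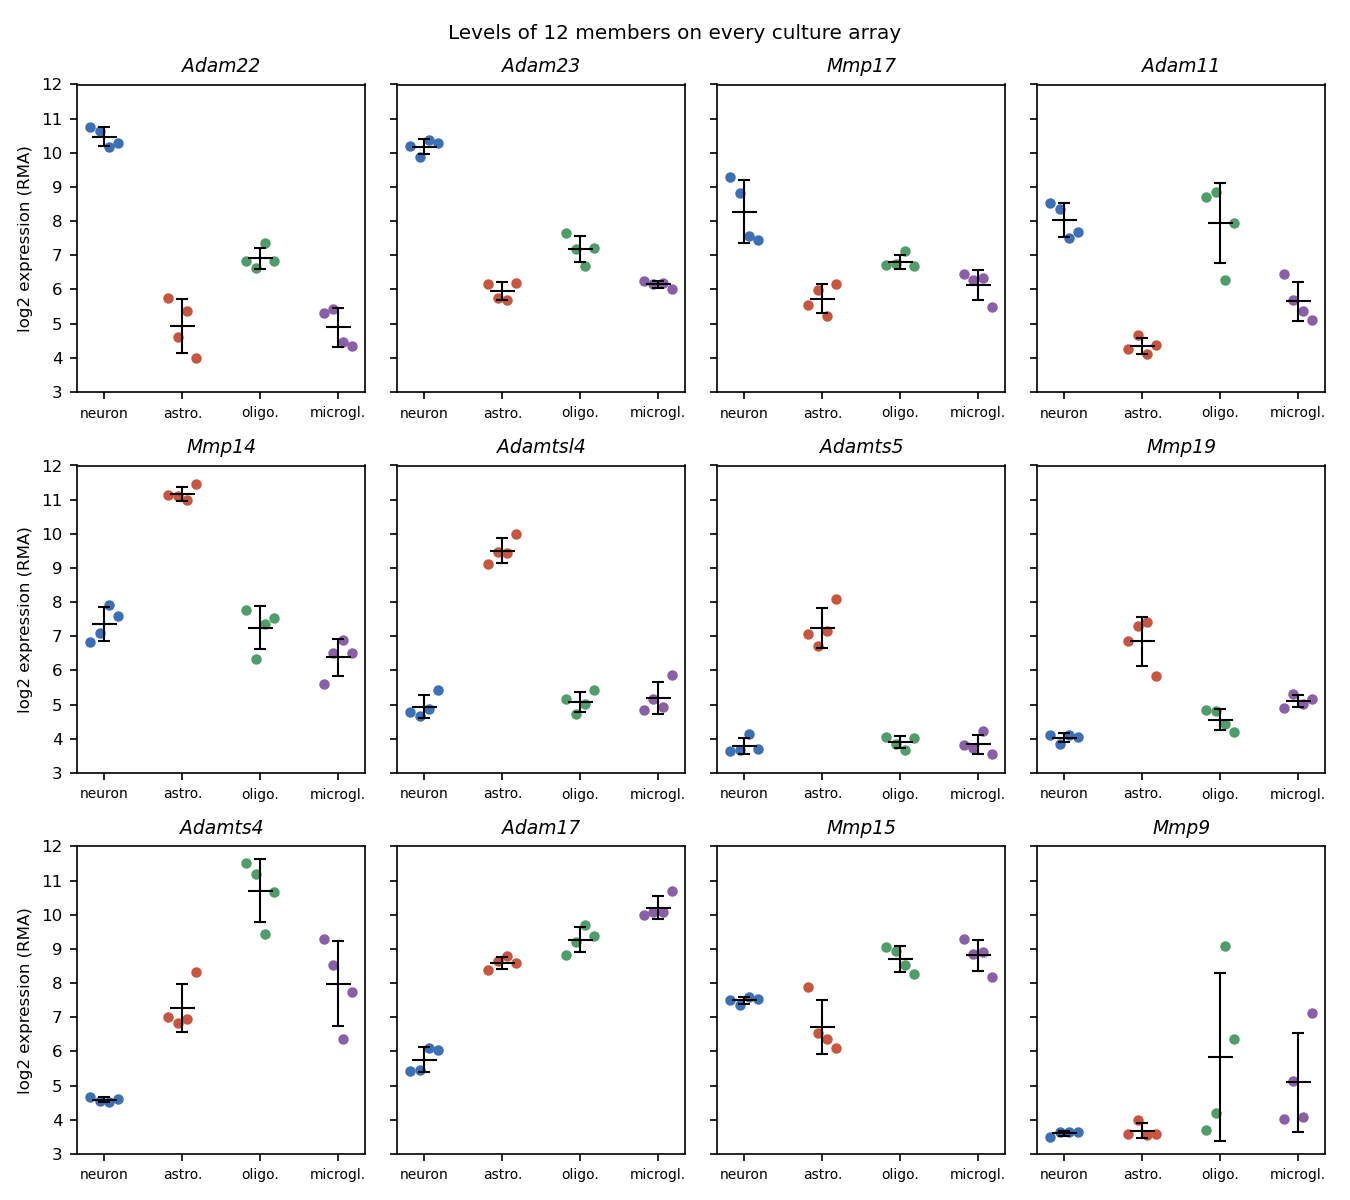
Log2 expression of 12 members on every culture array (points), with the mean and SD of 4 replicates (bars). Adam22, Adam23 and Mmp17 are highest in neurons, Mmp14, Adamtsl4, Adamts5 and Mmp19 in astrocytes and Adamts4 in oligodendrocytes; Adam17 ascends from neurons to microglia, and Mmp9 is high on single arrays.

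The 8 Adams known from testis, epididymis or sperm formed the reverse case. Adam1a, Adam2, Adam3a, Adam4, Adam6, Adam7, Adam18 and Adam32 gave 0 calls between any pair of cultures by limma, where 48.4% of all genes had a call. At an unadjusted p under 0.05, 6 of the 8 differed for at least 1 pair, and 0 of them by a log2 difference of 1. The share of all genes at the unadjusted threshold is not given here, so 6 of 8 cannot be ranked. The largest difference was 0.63, of Adam1a between neurons and astrocytes (limma adjusted p = 0.000299). Adam4 and Adam7 were higher in microglia than in astrocytes (limma adjusted p = 0.00111 and 0.00532). Adam2 was higher in microglia than in neurons (limma adjusted p = 0.0195). These differences passed the adjustment and fell short only of the minimum difference. Leaving out Adam1a, which read 6.20 to 7.13, the other 7 lay between 3.36 and 5.42 on all 16 arrays. Adam2, Adam4, Adam6, Adam7 and Adam32 were below the array median throughout. In the GRCr8 order, Adam32, Adam3a and Adam18 lie beside Adam9 with 0 or 1 other protein-coding gene between neighbours.

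Of the 6 Adamts enzymes that cleave proteoglycans such as aggrecan, brevican and versican, 5 differed between cultures (48.4% of all genes did), and they peaked in different ones. Adamts4 (aggrecanase-1) had the largest difference between 2 cultures of any member. It read 11.53, 11.19, 9.44 and 10.66 in oligodendrocytes, 9.28, 8.53, 6.37 and 7.73 in microglia, 7.00, 6.84, 6.95 and 8.33 in astrocytes and 4.68, 4.54, 4.51 and 4.62 in neurons. All oligodendrocytic arrays were above all others, and neurons were below every glial array. Oligodendrocytes exceeded neurons by 6.12 ± 0.54 (69.5-fold; adjusted p = 1.88e-07) and microglia by 2.73 ± 0.54 (6.62-fold; adjusted p = 0.00156). The mean of the 11 oligodendrocytic markers was 11.24, 10.69, 9.32 and 10.43 on the oligodendrocytic arrays and 8.67, 8.44, 7.23 and 7.96 on the microglial arrays. Adamts4 had the same order of replicates as this list in both cultures, and replicate 3 was lowest in each. The part of oligodendrocytic RNA in the microglial level of Adamts4 was not tested.

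Adamts5 (aggrecanase-2) was high in astrocytes and low elsewhere. It read 7.05, 6.72, 7.14 and 8.09 there and between 3.55 and 4.22 on all 12 other culture arrays. Astrocytes exceeded oligodendrocytes by 3.35 ± 0.24 log2 units of signal (adjusted p = 4.08e-08) and neurons by 3.47 ± 0.24 (adjusted p = 8.45e-09). The second probe set had the same direction and a smaller difference, with astrocytes above neurons by 2.31 ± 0.33 (adjusted p = 2.61e-05). The other cultures were below the array median on both probe sets, and no fold is given here. Some folds given for other members, such as that of Adamts4 over neurons, also rest on a culture below it. Adamts1, its neighbour on chromosome 11 with 0 protein-coding genes between, had another profile. It read 5.58, 6.66, 4.54 and 5.35 in oligodendrocytes, 5.92, 4.46, 4.08 and 5.66 in microglia, 5.21, 4.64, 5.05 and 5.93 in astrocytes and 4.12, 3.79, 4.75 and 4.57 in neurons. The glial cultures overlapped widely, and the 1 call, oligodendrocytes over neurons (1.23 ± 0.46, adjusted p = 0.0431), was lost without neuronal replicate 1, 2 or 4, astrocytic replicate 1 or 3 or oligodendrocytic replicate 1, 2 or 4, with adjusted p from 0.0521 to 0.153.

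Adamts9 read 7.63, 6.88, 6.73 and 7.44 in astrocytes, 6.40, 6.61, 4.36 and 5.43 in oligodendrocytes, 5.69, 5.45, 5.39 and 5.89 in microglia and 4.13, 4.33, 4.44 and 4.56 in neurons. Astrocytic arrays were the highest, though oligodendrocytic replicate 2 came close to the lowest of them. Astrocytes exceeded oligodendrocytes by 1.47 ± 0.37 (2.77-fold; adjusted p = 0.00573) and neurons by 2.81 ± 0.37 (6.99-fold; adjusted p = 1.24e-05). The second probe set of Adamts9 averaged 4.60 to 4.72 in the 4 cultures, with astrocytes minus oligodendrocytes at -0.09 ± 0.11 (adjusted p = 0.581). With the mean of both, the difference from oligodendrocytes was 0.69 and no longer called.

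Adamts15 and Adamts8 are also neighbours, on chromosome 8 with 0 protein-coding genes between, and they too differed in profile. Adamts15 was highest in neurons, with 6.41, 5.71, 6.98 and 7.48, against 5.81, 5.11, 5.20 and 5.40 in astrocytes, 4.75 to 4.91 in oligodendrocytes and 4.98 to 5.78 in microglia. Neuronal replicate 2 fell within the astrocytic range. Neurons exceeded astrocytes by 1.26 ± 0.30 (2.40-fold; adjusted p = 0.00226). Without neuronal replicate 4 this difference was 0.98 and under the minimum, which left neurons with 3 members above each other culture.

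Adamts8 was high on a single culture array. Its astrocytic values were 4.16, 3.78, 4.17 and 9.01, while neuronal arrays read 4.88, 4.44, 5.06 and 5.69, oligodendrocytic arrays 3.70 to 4.09 and microglial arrays 3.47 to 3.99. Replicate 4 was thus far above the other 3 astrocytic arrays, which were at the level of the other glia. Mmp2 (gelatinase A), the secreted gelatinase that Mmp14 activates, shared this pattern. It read 6.54, 6.60, 6.53 and 10.19 in astrocytes, 6.45, 6.89, 7.53 and 7.46 in neurons, 6.68, 5.44, 5.18 and 5.61 in oligodendrocytes and 5.18, 5.34, 5.56 and 5.18 in microglia. Adamts10, a fibrillin-associated enzyme, read 5.63, 6.42, 6.45 and 9.03 in astrocytes and between 5.35 and 6.26 elsewhere. On the same 4 astrocytic arrays, collagen Col1a1 read 6.78, 7.70, 7.72 and 13.01 and Col3a1 7.63, 7.57, 7.66 and 12.56. Dcn and Lum, also of the fibroblast and meningeal list, did not stand out on replicate 4, with 3.31 to 3.52 and 3.13 to 3.22 on these arrays. The mean of that list was highest on the array where Adamts8, Mmp2 and Adamts10 were high, and its part in the result was not tested.

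These 3 genes were then compared with and without that array. Adamts8 was not called between any pair of cultures. With all arrays, astrocytes exceeded microglia in Mmp2 by 2.15 ± 0.64 (adjusted p = 0.0147) and oligodendrocytes in Adamts10 by 1.32 ± 0.49 (adjusted p = 0.0491). Without astrocytic replicate 4 the Mmp2 difference was 1.24 ± 0.31 (adjusted p = 0.00451), which was still called, and that of Adamts10 was 0.60 ± 0.20 (adjusted p = 0.0295), below the minimum. The Adamts10 call was also lost when any other culture array but astrocytic replicate 1 was left out, with adjusted p from 0.0523 to 0.105. A second probe set of Adamts10 read 4.60, 4.75, 4.77 and 6.03 in astrocytes, where replicate 4 was again highest, while that of Mmp2 read 4.25, 4.42, 4.20 and 4.33. Without astrocytic replicate 4, neurons were also called above the mean of the other cultures in Mmp2 (1.22 ± 0.23, adjusted p = 0.000424) and Adamts8 (1.11 ± 0.17, adjusted p = 6.08e-05), which neurons were not with it. For Mmp14, Adamts5 and Adamtsl4 the astrocytic excess was present in all 4 replicates; without replicate 4, that of Mmp14 over neurons was 3.71 and that of Adamts5 over oligodendrocytes 3.07.

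The mixtures carried the same contrast. Replicate 1 of each mixture was made from astrocytic replicate 1 and replicate 2 from astrocytic replicate 4, per the labels. Adamts8 read 4.13 in replicate 1 and 8.62 in replicate 2 of NA1, 4.52 and 7.84 of NA2, 4.38 and 6.90 of NA3, 4.27 and 6.61 of NAO and 4.09 and 6.45 of NAOM. Mmp2 read 6.43 and 9.89 in NA1, 6.33 and 9.19 in NA2, 6.15 and 8.47 in NA3, 5.99 and 8.15 in NAO and 6.02 and 7.93 in NAOM. In every mixture replicate 2 was above replicate 1, and the gap was widest in NA1, the mixture with the most astrocytic RNA. Adamts10 went from 5.82 and 8.23 in NA1 to 5.40 and 6.14 in NAOM. The fibroblast and meningeal list read 6.64 and 8.38 in NA1 and 5.79 and 7.40 in NAOM.

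**Figure D4:**
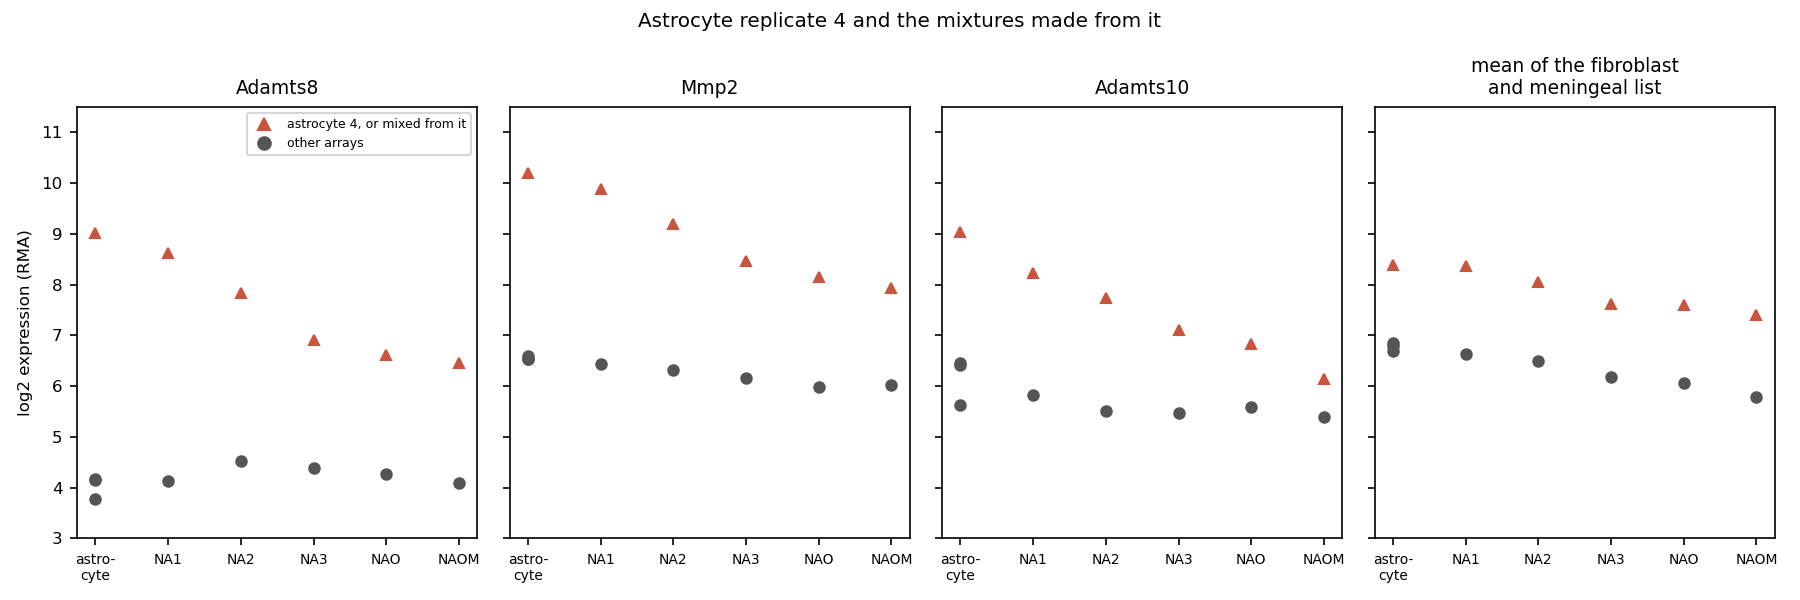
Log2 expression of Adamts8, Mmp2 and Adamts10 and the mean log2 value of the fibroblast and meningeal list in astrocytic cultures and in the 5 mixtures; triangles are astrocytic replicate 4 and mixtures made from it, and circles are the other arrays. In each panel every triangle lies above the circles of its group.

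The remaining Adamts members were mostly dim. Adamts7, which cleaves cartilage oligomeric matrix protein, read 6.56, 7.46, 7.13 and 7.05 in astrocytes and 5.68 to 6.33 in the other cultures. Astrocytes were above the rest without overlap, and exceeded microglia by 1.06 ± 0.18 (2.08-fold; adjusted p = 0.000253). That difference was just above the minimum and fell to 0.92 without astrocytic replicate 2 and 0.99 without microglial replicate 2; without oligodendrocytic replicate 2, Adamts7 was not called above each other culture either. Adamts6, Adamts12, Adamts16 and Adamts19 were below the array median on all 16 arrays.

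Of the 4 Adamtsl genes, 3 were above each other culture in astrocytes (5.91% of all genes were). Adamtsl4, whose product binds fibrillin microfibrils, read 9.12, 9.46, 9.45 and 10.01 in astrocytes. It read 4.79, 4.67, 4.88 and 5.43 in neurons, 5.16, 4.73, 5.00 and 5.44 in oligodendrocytes and 4.84, 5.15, 4.94 and 5.87 in microglia. The other cultures lay in 1 narrow range, well below the astrocytes. Astrocytes exceeded microglia by 4.31 ± 0.24 (19.8-fold; adjusted p = 2.37e-09) and neurons by 4.57 ± 0.24 (23.7-fold; adjusted p = 5.66e-10).

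Adamtsl1 (punctin-1) read 6.76, 6.92, 7.11 and 6.99 in astrocytes and 4.16 to 5.05 elsewhere, and astrocytes exceeded neurons by 2.19 ± 0.14 (4.55-fold; adjusted p = 5.75e-09). Adamtsl5 read 7.05, 7.38, 7.48 and 6.53 in astrocytes and 4.81 to 6.06 elsewhere, and astrocytes exceeded microglia by 1.32 ± 0.21 (2.50-fold; adjusted p = 0.000132). By these probe sets both genes separated astrocytes from every other array. The second probe set of Adamtsl5 gave a difference from microglia of 0.32 ± 0.16 (adjusted p = 0.14), and with the mean of both it was 0.82 and no longer called. Adamtsl2, another fibrillin-binding member, was not called; it read 4.80, 4.89, 4.89 and 6.30 in astrocytes, where replicate 4 was again the highest.

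The neuron and astrocyte differences were followed into the mixtures of their RNA. Over the 6 arrays of NA1, NA2 and NA3, the slope on the neuronal fraction rose for 4 members (7.84%; 11% of all genes) and fell for 7 (13.7%; 7.69%) at a limma adjusted p under 0.05. The 4 that rose were Adam11, Adam22, Adam23 and Mmp17, and the 7 that fell were Adam17, Adamts9, Adamtsl1, Adamtsl4, Adamtsl5, Mmp11 and Mmp14. With single mixture arrays left out, 8 to 11 members were called, and Adamtsl4, Adamtsl5, Mmp11 and Mmp14 each lost the call at least once. With replicate as a block, since replicates share their parent cultures, 4 rose (14.5% of all genes) and 15 fell (17.2%). Adamts15, above each other culture in neurons, had no called slope (0.18 ± 0.51, limma adjusted p = 0.88), nor with the block (limma adjusted p = 0.703). Of the members above each other culture in astrocytes, Adamts5, Adamts7, Mmp19 and Mmp24 were called only with the block. These mixtures reuse RNA of cultures already compared, so they show how the arrays read stated fractions and are no separate support. Adam22 read 9.05 and 9.01 in NA1, 9.71 and 9.98 in NA2 and 10.31 and 10.43 in NA3, a slope of 2.68 ± 0.28 log2 units per unit of neuronal fraction, fitted between 0.25 and 0.75 (adjusted p = 0.00409). Adam17 read 7.95 and 7.83, 7.48 and 7.34, and 6.53 and 6.48, a slope of -2.77 ± 0.29 (adjusted p = 0.00409). Both moved in step in the 2 replicates. Adamts5 read 6.06 and 7.47, 5.38 and 6.53, and 4.46 and 5.38, where replicate 2, made from astrocytic replicate 4, was higher throughout; its slope was -3.69 ± 1.16 without the block (adjusted p = 0.0922) and -3.69 ± 0.29 with it (adjusted p = 0.000981).

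Values expected from the stated fractions and parents were computed as weighted sums of linear values. Measured values of all 51 members were within 1 log2 unit of these on 8 of the 10 mixture arrays, and the median deviation ran from -0.27 to -0.11. Adamts4, read 9.45 and 9.03 in NAO against 9.30 and 8.96 expected, and 9.10 and 8.65 in NAOM against 9.09 and 8.67. The exceptions were Adamts5, with a measured minus expected value of -1.10 in NAO replicate 2 and -1.21 in NAOM replicate 2, and Adamts10, with -1.06 in NAOM replicate 2.

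**Figure D5:**
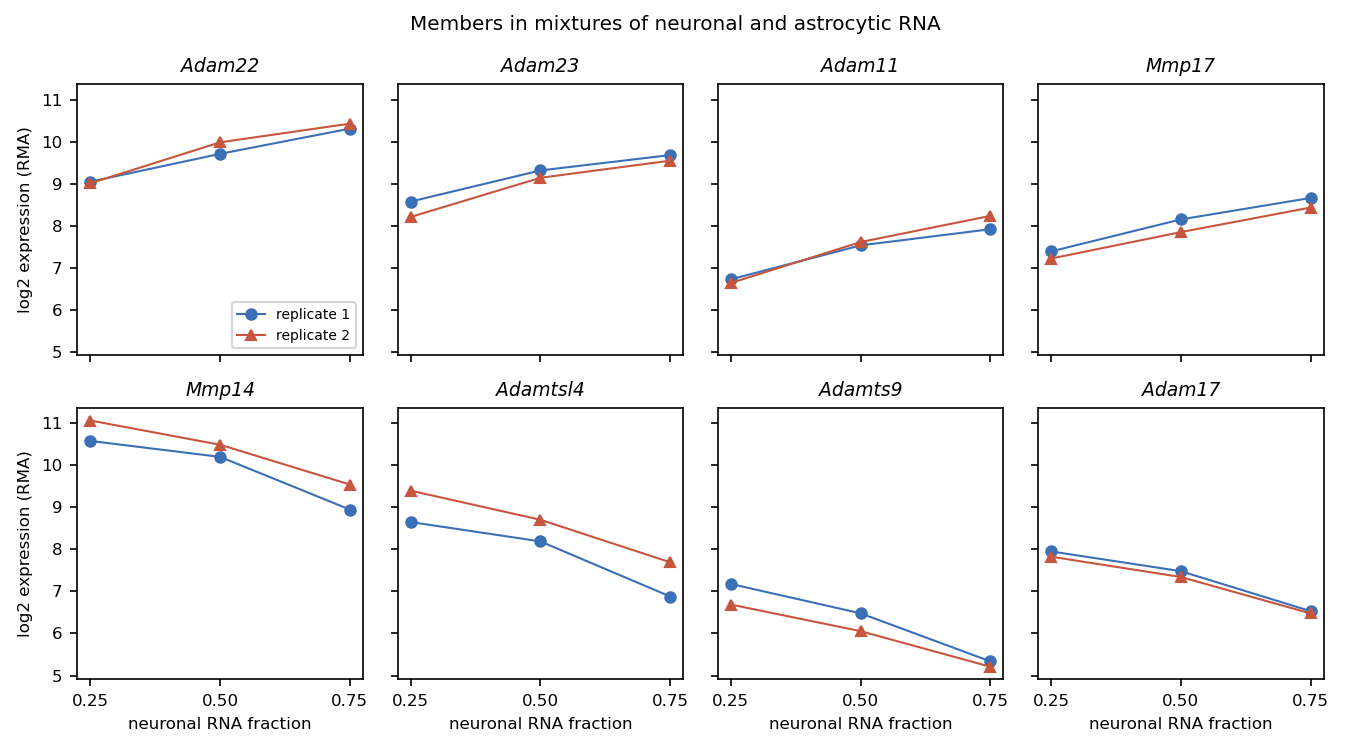
Log2 expression of 8 members against the fraction of neuronal RNA in mixtures with astrocytic RNA (0.25, 0.5 and 0.75); lines join the arrays of replicate 1 and of replicate 2. The upper 4 members ascend with neuronal RNA and the lower 4 descend.

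Among genes that restrain these enzymes, astrocytes had the most that were higher than in the rest. Of 13 listed inhibitors 10 were measured, and in astrocytes 6 (60%; 11.6% of all genes) were higher and 3 (30%; 8.82%) lower than in the rest, with a median difference of 1.57 against -0.01 for all genes. In neurons 2 (20%; 13.1%) were higher and 5 (50%; 15.5%) lower, in oligodendrocytes 0 (6.77%) and 3 (30%; 6.06%) and in microglia 1 (10%; 8.74%) and 4 (40%; 11.2%). Timp1 averaged 11.71 in astrocytes and 6.73 to 8.63 elsewhere (astrocytes minus the rest 3.86 ± 0.34, adjusted p = 2.28e-07). Timp3 averaged 11.42 in astrocytes and 6.16 to 7.82 elsewhere (4.27 ± 0.31, adjusted p = 4.15e-08). A2m, which encodes the broad protease trap alpha-2-macroglobulin, averaged 13.03 in astrocytes and 4.46 to 6.06 elsewhere (7.96 ± 0.38, adjusted p = 4.02e-10).

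Among activators of the pro-enzymes, microglia had the most that were higher than in the rest. Of 15 listed, 14 were measured; in microglia 5 (35.7%; 8.74% of all genes) were higher and 2 (14.3%; 11.2%) lower. In neurons 0 (13.1%) were higher and 5 (35.7%; 15.5%) lower, in astrocytes 1 (7.14%; 11.6%) and 3 (21.4%; 8.82%) and in oligodendrocytes 2 (14.3%; 6.77%) and 1 (7.14%; 6.06%). Plau (urokinase) averaged 9.94 in microglia (microglia minus the rest 4.19 ± 0.32, adjusted p = 7.96e-08) and its receptor Plaur 8.39 (3.77 ± 0.32, adjusted p = 1.87e-07). Plat (tissue plasminogen activator) averaged 10.33 in astrocytes (astrocytes minus the rest 4.74 ± 0.44, adjusted p = 5.11e-07). The median difference of this list in microglia was 0.44, against 0.04 for all genes.

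Partners that mature or traffic Adam10 and Adam17 were spread over the cultures. Of 12 listed, 10 were measured; 3 (30%; 13.1% of all genes) were higher and 3 (30%; 15.5%) lower in neurons. In astrocytes 0 (11.6%) were higher and 3 (30%; 8.82%) lower, in oligodendrocytes 4 (40%; 6.77%) and 2 (20%; 6.06%) and in microglia 1 (10%; 8.74%) and 2 (20%; 11.2%). Rhbdf2 (iRhom2), which brings Adam17 to the cell surface, averaged 4.56 in neurons, 5.11 in astrocytes, 6.45 in oligodendrocytes and 7.57 in microglia, the same order of cultures as Adam17 (microglia minus the rest 2.20 ± 0.19, adjusted p = 1.83e-07). The neuronal and astrocytic means of Rhbdf2 were below the array median. As for Adam17, the part of microglial RNA in its oligodendrocytic level was not tested. The related Rhbdf1 had another order. It read 6.15 to 7.38 in neurons, 7.28 to 8.53 in microglia, 8.55 to 8.91 in astrocytes and 8.72 to 9.37 in oligodendrocytes. Tspan17, a tetraspanin partner of Adam10, averaged 10.23 in neurons and 7.30 to 8.27 elsewhere (neurons minus the rest 2.58 ± 0.11, adjusted p = 3.39e-11). Of 6 gamma-secretase subunits, which cut the stubs left by Adams, 4 were measured; 2 (Ncstn and Aph1a; 50%, against 15.5% of all genes) were lower in neurons, and none was called in another culture against the rest.

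Shed substrates of Adam10 and Adam17 and matrix substrates of the Mmps and Adamts enzymes held genes that peaked in different cultures. Of 28 listed shed substrates 27 were measured, and 4 (14.8%; 13.1% of all genes) were higher and 12 (44.4%; 15.5%) lower in neurons. In astrocytes 8 (29.6%; 11.6%) were higher and 6 (22.2%; 8.82%) lower, in oligodendrocytes 5 (18.5%; 6.77%) and 4 (14.8%; 6.06%) and in microglia 7 (25.9%; 8.74%) and 9 (33.3%; 11.2%). The neuronal share called higher was thus near that of all genes. Csf1r averaged 12.12 in microglia (microglia minus the rest 5.33 ± 0.32, adjusted p = 5.51e-09), Cx3cl1 9.69 in neurons (3.80 ± 0.27, adjusted p = 8.52e-09) and Tgfa 10.25 in oligodendrocytes (3.69 ± 0.42, adjusted p = 1e-05). All 20 listed matrix substrates were measured, and 9 (45%; 11.6% of all genes) were higher and 1 (5%; 8.82%) lower in astrocytes. In oligodendrocytes 3 (15%; 6.77%) were higher and 3 (15%; 6.06%) lower, in neurons 1 (5%; 13.1%) and 7 (35%; 15.5%) and in microglia 0 (8.74%) and 8 (40%; 11.2%). The lecticans Bcan (brevican) and Vcan (versican), which Adamts4 cleaves, averaged 11.00 and 10.41 in oligodendrocytes, and exceeded the rest there by 1.98 ± 0.32 (adjusted p = 0.000217) and 3.67 ± 0.48 (adjusted p = 3.62e-05). Fn1 (fibronectin) averaged 12.03 in astrocytes (5.70 ± 0.35, adjusted p = 6.18e-09). The mean of the fibroblast and meningeal markers, several of them collagens of this list, was highest on astrocytic replicate 4. Their part in the astrocytic count was not tested.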

How the data were processed

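RNA extracted with TRIzol and RNeasy and labelled with biotin by in vitro transcription was hybridised to 26 rat arrays, per the labels' protocols. The authors deposited log2 values made by RMA in affy (version not given in the sources used here), per the submitters' processing notes. RMA sets all arrays to 1 distribution, so a shift of total RNA would not show, and it flattens low signal. The number of arrays limits the precision. The 31099 probe sets held 57 controls, which were set aside. Of the others, 20826 carried 1 symbol, 436 several and 9780 none. Array medians were 5.25 to 5.31 in cultures and 5.33 to 5.41 in mixtures. The 16 culture arrays were fitted together with limma 3.58.1 in R 4.3.3 (lmFit, eBayes, 1 mean per culture), and the 6 NA mixture arrays with a slope; adjustment was by Benjamini-Hochberg. Promoters and figures used Python 3.11.15, pandas 2.3.3, numpy 2.4.6 and matplotlib 3.10.9. The fits were tested on simulated data, and no filter on low values was applied. Alternatives were the replicate block, median centring, quantile normalization of the fitted arrays, removal of the dimmest 25%, other minima, a trended variance, array weights, the mean of probe sets, a fit on all arrays and leaving out each array. Members and lists were chosen with earlier results of these data known. Full values were given for members above each other culture or with the largest differences, and for a few genes per list, mostly called ones. Replicate numbers did not pair the cultures (residual correlations -0.107 to 0.178 over 24 pairs, 5 above 0.1) but paired the NA mixtures, which share parents (0.484 to 0.873 over 3 pairs).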

Additional observations from a re-analysis of the deposited data

Results flagged for a closer look

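The 24 members called in any pair of cultures, or with an SD above 1 in a culture, gave 96 groups of 4 arrays. Of these, 11 groups held an array whose gap to its nearest neighbour took up most of the group's range. Chance alone gives about 1 in 20 such groups, a rate that does not apply to members chosen partly by their spread. In astrocytic replicate 4, Mmp2 read 10.19 (others 6.53 to 6.60), Adamts8 9.01 (3.78 to 4.17), Adamts4 8.33 (6.84 to 7.00) and Adam15 8.97 (9.61 to 9.68). In astrocytic replicate 2, Mmp9 read 4.00 (3.55 to 3.57). Among microglial arrays, Adam17 read 10.70 in replicate 4 (10.00 to 10.07) and Mmp24 6.75 in replicate 1 (7.20 to 7.24). Among oligodendrocytic arrays, Mmp11 read 5.29 in replicate 2 (4.27 to 4.42) and Mmp17 7.12 in replicate 3 (6.68 to 6.74). Among neuronal arrays, Adamts5 read 4.15 in replicate 3 (3.64 to 3.70) and Mmp9 3.49 in replicate 1 (3.63 to 3.65).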

How the results depend on the processing

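For each of the 22 members called in a pair, 1 difference was recomputed under 25 alternatives. It was that of the highest culture from the next highest or from the lowest. Of these 550 differences, 514 kept their direction and call, 36 kept only their direction and 0 reversed. Of the 36, 20 were of Adamts10 and 9 of Adamts1. The alternative with no minimum difference used the same fit, so its 22 differences kept direction and call by design. Other pairs were not covered: the Mmp24 difference between astrocytes and neurons changed direction with the mean of its probe sets. With replicate as a block, members with a slope on the neuronal fraction numbered 19 in place of 11, and no culture count changed by over 1.5 times. With cultures quantile normalized alone, or with no minimum difference, members above each other culture in microglia numbered 1 (Adam17) in place of 0. With no minimum, 19 members were lower in neurons (8 with it), 9 lower in astrocytes (5), 8 lower in oligodendrocytes (4) and 7 higher in microglia (3). The shares of all genes with no minimum are not given here. With array weights, 2 were lower in oligodendrocytes. With the mean of a gene's probe sets, 2 were lower in oligodendrocytes and 4 in microglia (8), and astrocytes held 7 above each other culture in place of 10. When each array was left out in turn, the counts against the rest were 5 to 7 higher and 8 to 10 lower in neurons, 10 to 12 and 5 in astrocytes, 3 to 4 and 3 to 5 in oligodendrocytes and 3 and 6 to 8 in microglia. Those above each other culture were 3 to 4 in neurons, 9 to 11 in astrocytes, 1 in oligodendrocytes and 0 to 1 in microglia. Slopes were called for 8 to 11. Beyond what each alternative itself sets, the cause of these changes was not tested. Signal near background limits the dim members, where RMA compresses differences.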
